A study of Mus musculus with 6 samples.

Results

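The 33 genes described here cover glycolysis and the response to low oxygen: the transporters that bring glucose in and lactate out, the enzymes of each step from hexokinase to lactate dehydrogenase, the kinases that hold pyruvate back from mitochondria, and hypoxia-inducible factor 1 alpha (HIF1A) with its hydroxylases and some of its targets. They were chosen by symbol, and all 33 were found among the 24493 gene symbols of the deposited table. The 6 libraries came from mouse spleen naive CD4 T cells that had been differentiated in culture and were labelled as regulatory T (Treg) cells, 3 from wild-type (WT) and 3 from Ifnar1-SA cells. Ifnar1 is the gene of a type I interferon receptor subunit, and the SA allele is known from published work as a serine-to-alanine change that protects the receptor from degradation. The labels name no other allele or treatment, and do not give the culture medium, the oxygen level, the animals' age, or whether replicate libraries stand for separate animals or cultures. P-values therefore measure only the spread between these libraries, which may be technical.

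Expression was given as TPM, in which each library's length-corrected transcript shares are scaled to a total of 1000000, so levels can be compared between genes but the sequencing depth is unknown. The T cell markers Cd3e, Cd3d and Cd4 were abundant in every library. Among Treg markers Il2ra and Ctla4 were abundant, at 359 to 444 and 482 to 876 TPM, while Foxp3, the factor that defines the lineage, lay between 0.276 and 1.82 TPM. Summed markers of B cells reached at most 11.3 TPM, those of myeloid cells 14.2 TPM, those of CD8 T and NK cells 20.2 TPM, and those of stromal and erythroid cells 5.33 and 0.785 TPM. The ranges of these 5 sums overlapped between the genotypes. Those of the T cell markers (510.2 to 533 TPM in WT, 564 to 568 TPM in Ifnar1-SA) and of the Treg markers (844 to 1127 and 1187 to 1324 TPM) did not. The Treg sum consisted mainly of Il2ra and Ctla4, so it does not report Foxp3. The part of both sums in the results below was not tested. In bulk samples, fewer cells of a type and less RNA per cell cannot be told apart.

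Glycolysis splits glucose into pyruvate, and activated T cells turn much of that pyruvate into lactate even when oxygen is present. When oxygen is plentiful, prolyl hydroxylases of the EGLN family mark HIF1A for destruction. When it is scarce, HIF1A accumulates, pairs with ARNT, and activates genes that carry the core letters ACGTG or GCGTG, among them most glycolytic genes. HIF1A is controlled mainly at the protein level, so its transcript does not report its activity. The receptor signals of T cells also raise HIF1A and MYC, which share many of these target genes.

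Promoter windows of 4 members are printed as examples of these letters. Slc2a1 and Hif1a had libraries that did not overlap between the genotypes in TPM (3.80% of all genes in that direction). Ldha differed least among the abundant enzymes, and Ankrd37 is a hypoxia target. Each window runs from 250 bases before to 50 bases after a RefSeq start site (build GRCm38.p6, the build family of the files), written 5′ to 3′ on the gene's strand. Capitals mark ACGTG and GCGTG on either strand, which read CACGT and CACGC when on the other strand.
Slc2a1 (chr4:119108495-119108794, plus strand): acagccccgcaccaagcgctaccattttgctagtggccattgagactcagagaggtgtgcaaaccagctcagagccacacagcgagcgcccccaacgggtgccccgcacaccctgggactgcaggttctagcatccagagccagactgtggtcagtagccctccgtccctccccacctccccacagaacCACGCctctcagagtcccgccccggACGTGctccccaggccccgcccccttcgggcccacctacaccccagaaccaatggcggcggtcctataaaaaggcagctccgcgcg
Hif1a (chr12:73907617-73907916, plus strand): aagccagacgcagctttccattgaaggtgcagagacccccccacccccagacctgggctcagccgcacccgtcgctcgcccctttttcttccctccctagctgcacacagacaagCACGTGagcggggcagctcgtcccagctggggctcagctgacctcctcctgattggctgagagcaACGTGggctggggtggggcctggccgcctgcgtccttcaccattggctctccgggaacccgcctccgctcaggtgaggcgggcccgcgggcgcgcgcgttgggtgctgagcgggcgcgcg
Ldha (chr7:46845554-46845853, plus strand): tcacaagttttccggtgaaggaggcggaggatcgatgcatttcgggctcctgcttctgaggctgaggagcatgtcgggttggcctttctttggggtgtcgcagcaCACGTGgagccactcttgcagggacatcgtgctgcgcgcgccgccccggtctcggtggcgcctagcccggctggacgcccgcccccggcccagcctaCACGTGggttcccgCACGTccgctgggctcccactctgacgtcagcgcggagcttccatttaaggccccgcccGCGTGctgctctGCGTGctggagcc
Ankrd37 (chr8:45999801-46000100, minus strand): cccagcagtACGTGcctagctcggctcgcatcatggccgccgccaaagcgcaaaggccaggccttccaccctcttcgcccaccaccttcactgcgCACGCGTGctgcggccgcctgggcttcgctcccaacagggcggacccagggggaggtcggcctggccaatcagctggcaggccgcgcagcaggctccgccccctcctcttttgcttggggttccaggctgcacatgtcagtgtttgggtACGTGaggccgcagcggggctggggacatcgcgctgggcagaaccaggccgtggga

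The printed Ldha window held ACGTG 5 times counted over both strands, 4 of them within 2 copies of the palindrome CACGTG. That palindrome is also the E-box read by MYC and its partners. Ldha had another window (chr7:46846832-46847131), not printed, which held ACGTG 0 times and GCGTG 2 times. The Hif1a window held ACGTG 3 times, the Ankrd37 window 2 times and the Slc2a1 window 1 time. Windows were found for 32 of the 33 members, and Slc2a3 had none in the table. ACGTG stood in at least 1 window of 22 of these 32 genes (68.8%), against 29.6% of 8918 tested genes with a window. For GCGTG the shares were 65.6% and 54.8%, and for CACGTG 18.8% and 11.8%. Genes with several windows have more places for a match. Counted by window, ACGTG stood in 55.3% of the 47 member windows and in 26.0% of 11221 windows of tested genes. The list includes genes chosen as HIF targets, so these shares describe the choice of genes and are no test. A match describes letters and not binding, and windows without a match, such as those of Gpi1, Eno2 and Tpi1, show only that the letters were absent from these 300 bases.

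The comparison asked how transcript levels differed between Ifnar1-SA and WT cells along the pathway. By the limma test over all 12141 genes whose mean reached 1 TPM, 0 of the 33 members passed an adjusted p of 0.05 (Benjamini-Hochberg; 0.0577% of all genes tested did), and all 33 members were above that filter. Slc2a3 was the 1 member with an unadjusted p under 0.05 by limma, against 3.12% of all genes in either direction and 1.68% in the lower. The mean log2 value was lower in Ifnar1-SA for 33 of 33 members in TPM, beside 62.9% of all genes, and for 28, 30 and 26 members after median-of-ratios, quantile and TMM scaling (the last a trimmed mean of log ratios), beside 42.5%, 49.6% and 35.2% of all genes. Their median difference in log2(TPM + 1) was -0.22, or -0.17 relative to the median of all genes (-0.06). Relative to that median of all genes it was -0.15, -0.22 and -0.14 under these scalings. TMM moved the median of all genes to 0.07. The members vary together across libraries, so their 33 signs are not separate observations.

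**Figure D1:**
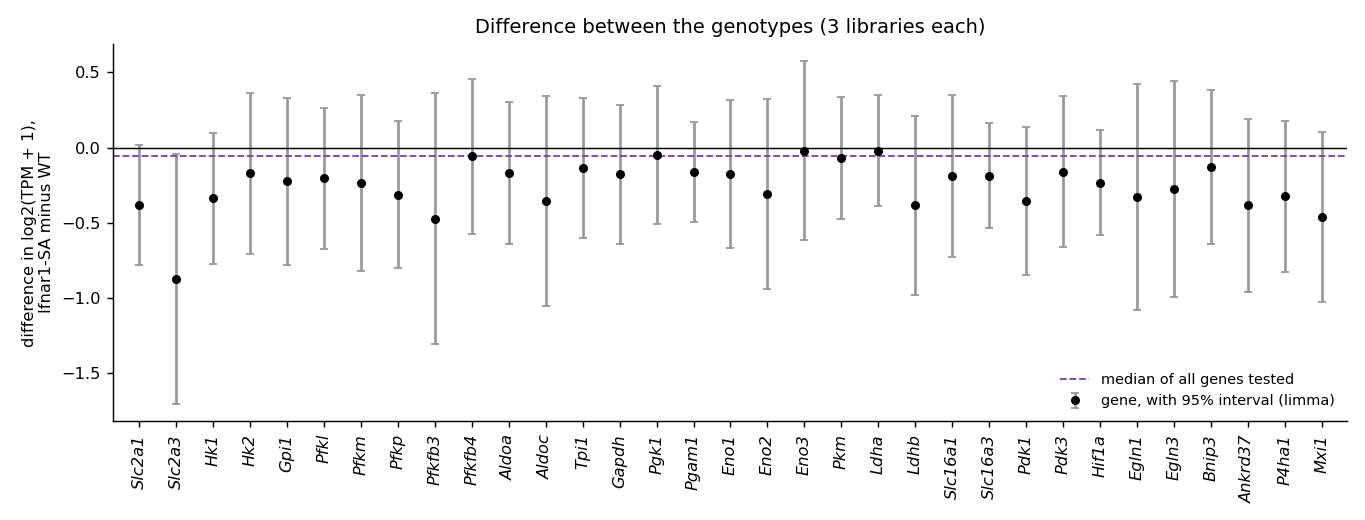
Difference in log2(TPM + 1) between 3 Ifnar1-SA and 3 WT libraries for each gene in pathway order, with 95% intervals from limma; the dashed line is the median of all genes tested. All 33 points lie below 0, from -0.02 for Eno3 and Ldha to -0.87 for Slc2a3, and the interval of Slc2a3 alone stays below 0.

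Glucose enters T cells through the transporters GLUT1 and GLUT3, and their genes had the smallest p-values among the members without reaching the threshold. Slc2a1 (GLUT1; protein-coding, on the plus strand of GRCm38 chromosome 4 from 119108711 to 119137983) was at 137, 178 and 159 TPM in WT 1 to 3 and at 135, 119.7 and 107 TPM in Ifnar1-SA 1 to 3. The highest Ifnar1-SA library lay just below the lowest WT library, and 3.80% of all genes tested were separated in that direction. Hif1a was the other such member, and 0 members were separated the other way (1.97% of all genes). The log2 difference was -0.38 ± 0.17 (SE; 95% interval -0.78 to 0.02; limma adjusted p = 0.9997). Slc2a3 (GLUT3; protein-coding, on the minus strand of chromosome 6 from 122727809 to 122801640) was at 116, 307 and 208 in WT libraries and at 129, 96.7 and 95.04 TPM in Ifnar1-SA. WT 1 lay within the Ifnar1-SA range, while WT 2 and WT 3 lay above every Ifnar1-SA library. Its log2 difference was -0.87 ± 0.35 (95% interval -1.71 to -0.04; limma adjusted p = 0.9997). That difference rested on the WT libraries: it was -1.25 without WT 1, and -0.55 without WT 2.

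GLUT3 took a larger part of the glucose transporter transcripts in WT 2 and WT 3 than in the other libraries. Slc2a3 made up 45.8%, 63.3% and 56.8% of the sum of both genes in WT, and 48.9%, 44.7% and 46.9% in Ifnar1-SA. The mean difference of -8.46 percentage points was within the spread of the WT libraries (exact two-sided permutation p = 0.3, adjusted p = 0.6 over 10 shares), and 3 against 3 libraries cannot give a p below 0.1. The difference was -13.2 points without WT 1 and -4.46 points without WT 2.

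**Figure D2:**
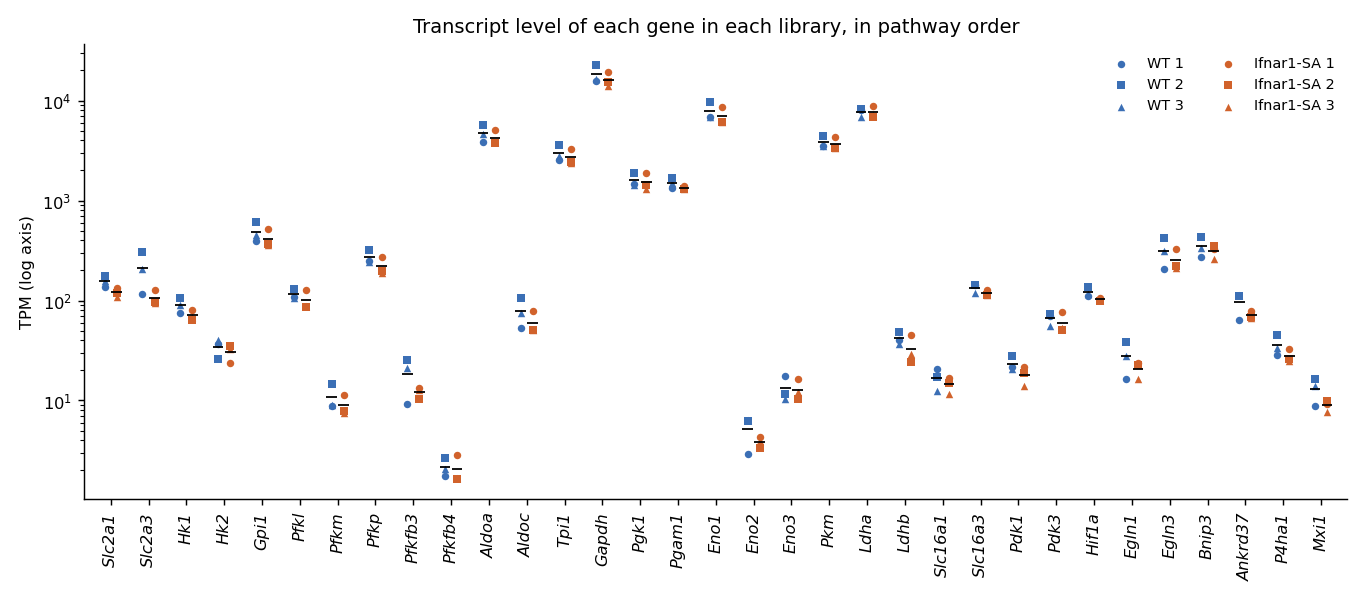
TPM of each gene on a log axis in the 6 libraries, in pathway order; symbols are libraries and black bars the mean of 3. Gapdh stands highest and Pfkfb4 lowest, and WT 2 (blue squares) is the highest WT library for 28 of the 33 genes.

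The first enzymes commit glucose to the pathway, and their transcripts were far scarcer than those of the later steps. Hk1, the broadly expressed hexokinase, was at 75.3, 106 and 89.3 in WT libraries and 81.1, 64.1 and 67.7 TPM in Ifnar1-SA, with a log2 difference of -0.34 ± 0.18 (limma adjusted p = 0.9997), or -0.21 without WT 2. Ifnar1-SA 1 was above WT 1, so the groups overlapped. Hk2, the inducible hexokinase, was at 36.9, 26.2 and 40.5 TPM and at 23.8, 34.7 and 32.8 TPM. WT 2 and Ifnar1-SA 1 were lowest for Hk2, whereas they were highest of their genotype for Hk1. Hk2 thus made up 19.8% of hexokinase transcripts in WT 2 and 22.7% in Ifnar1-SA 1, and 31.2% to 35.1% in the other 4 libraries.

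Gpi1, which turns glucose-6-phosphate into fructose-6-phosphate, was at 487 ± 116 in WT libraries and 416 ± 93.7 TPM in Ifnar1-SA (mean ± SD, n = 3). Phosphofructokinase, the main control point, is built from liver, muscle and platelet subunits, and the platelet subunit led in every library. Pfkp was at 250.1, 321 and 241 in WT libraries and 273, 197 and 187 TPM in Ifnar1-SA. Pfkl was at 115 ± 13.7 and 101 ± 22.3 TPM, and Pfkm at 10.8 ± 3.42 and 8.93 ± 2.10 TPM. The share of Pfkp among the 3 subunits was nearly constant, at 68.0%, 68.8% and 67.8% in WT libraries and 66.5%, 67.5% and 66.0% in Ifnar1-SA. These shares did not overlap, by a mean difference of -1.54 percentage points (exact two-sided permutation p = 0.1, which no split of 6 libraries can undercut; adjusted p = 0.5 over 10 shares).

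The PFKFB enzymes set the level of fructose-2,6-bisphosphate, an activator of phosphofructokinase. Pfkfb3 was at 9.13, 25.3 and 20.98 in WT libraries and 13.2, 10.3 and 12.7 TPM in Ifnar1-SA. Like Slc2a3, it was higher in WT 2 and WT 3 than in any other library. Pfkfb4 was the scarcest member, at 2.17 ± 0.472 and 2.07 ± 0.689 TPM.

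From aldolase onward each step was carried by 1 highly abundant gene. Aldoa was at 4747 ± 937 in WT libraries and 4213 ± 739.9 TPM in Ifnar1-SA, and its relative Aldoc made up 1.30% to 1.82% of aldolase transcripts. Tpi1, which interconverts the 3-carbon sugars, was at 2962 ± 535 and 2698 ± 514 TPM. Gapdh, the dehydrogenase of the same stretch, was at 15539.6, 22865 and 16624 in WT libraries and 19164, 15295 and 13898 TPM in Ifnar1-SA, and ranked 2 in the whole table by its mean. Eno1 and Ldha ranked 12 and 11. Ranks by mean were 28 for Aldoa, 36 for Pkm and 52 for Tpi1.

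The ATP-yielding enzymes differed little in mean. Pgk1, the phosphoglycerate kinase, was at 1590.5 ± 247 in WT libraries and 1546 ± 307 TPM in Ifnar1-SA, and Pkm, the pyruvate kinase gene, at 3824 ± 546 and 3651 ± 561 TPM. Pgam1, the mutase between them, was at 1342, 1676 and 1509 TPM and at 1406, 1307 and 1318 TPM. Its WT 1 library lay inside the Ifnar1-SA range. Eno1, the main enolase, was at 7831 ± 1631 and 6943 ± 1437 TPM, while Eno2 and Eno3, the nerve and muscle forms, together made up 0.183% to 0.300% of enolase transcripts. Eno1b, a near-identical copy of Eno1, was listed at 4.55 to 8.30 TPM, and reads shared between such copies could be split either way by the authors' quantification.

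Lactate dehydrogenase, which regenerates NAD+ by making lactate, was almost entirely the A form. Ldha was at 8139, 8234 and 6794 in WT libraries and 8869, 6803 and 7242 TPM in Ifnar1-SA, and both groups covered nearly the same range. Its 95% interval for the log2 difference ran from -0.39 to 0.35 (limma), so a change of that size in either direction remains possible. Ldhb, the form that favours pyruvate, was at 40.6, 48.4 and 37.1 TPM and at 45.6, 24.2 and 29.1 TPM. It made up 0.497% to 0.585% of lactate dehydrogenase transcripts in WT libraries and 0.355% to 0.512% in those of Ifnar1-SA (exact two-sided permutation p = 0.2, adjusted p = 0.5 over 10 shares).

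**Figure D3:**
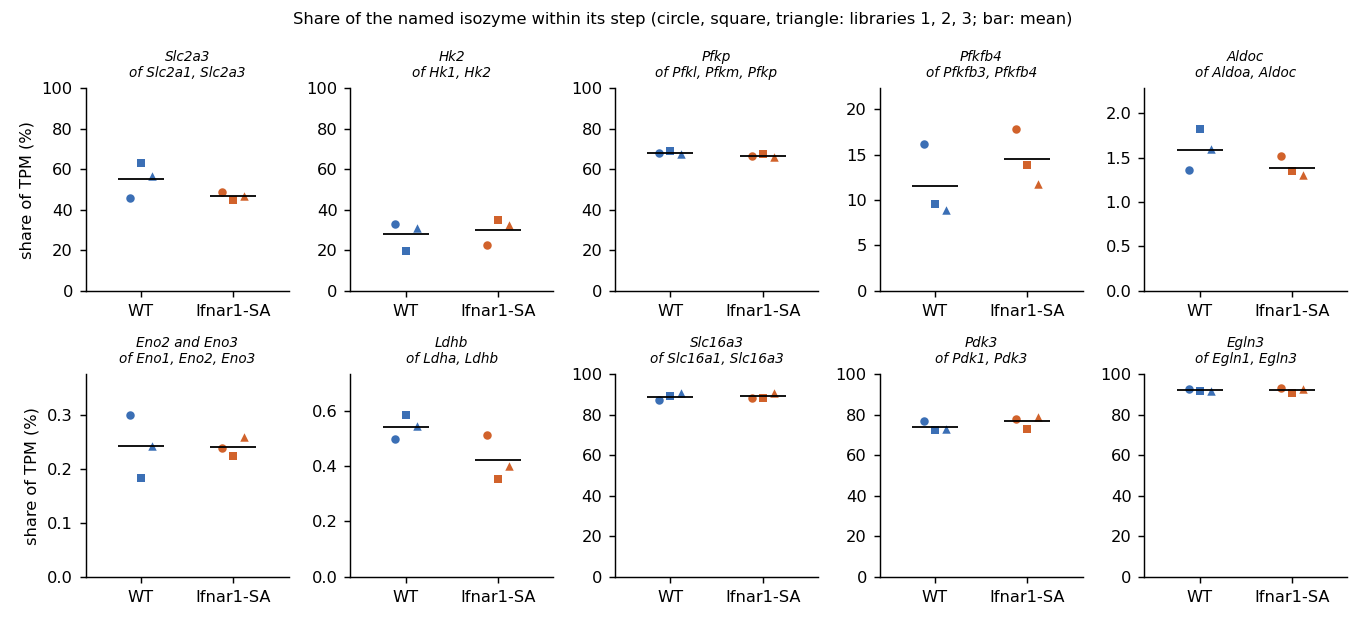
Share of TPM taken by the named isozyme among the genes of its step, in percent, for 3 WT and 3 Ifnar1-SA libraries; the bar is the mean and the axis range differs between panels. Pfkp keeps a narrow share (68.2% and 66.7% on average), while Slc2a3 spreads from 45.8% to 63.3% over the WT libraries.

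Lactate leaves the cell through monocarboxylate transporters, of which MCT4 carried most transcripts. Slc16a3 (MCT4) was at 142, 142 and 119.8 in WT libraries and 127, 113 and 114 TPM in Ifnar1-SA, and made up 87.3% to 90.7% of the sum with Slc16a1 (MCT1). Slc16a1 was at 16.8 ± 4.22 and 14.5 ± 2.54 TPM. Pyruvate dehydrogenase kinases keep pyruvate out of the mitochondrial cycle. Pdk1, the HIF-responsive kinase, was at 21.4, 27.6 and 20.8 in WT libraries and 21.6, 18.9 and 13.9 TPM in Ifnar1-SA. Ifnar1-SA 1 lay inside the WT range, with a log2 difference of -0.35 ± 0.21 (limma adjusted p = 0.9997), or -0.23 without WT 2 and -0.18 without Ifnar1-SA 3. Pdk3 was the more abundant kinase, at 66.5 ± 9.03 and 60.2 ± 14.6 TPM.

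Transcripts of HIF1A itself and of its feedback hydroxylases also had lower means in Ifnar1-SA. Hif1a (protein-coding, on the plus strand of chromosome 12 from 73901375 to 73947530) was at 110.0, 137 and 116 in WT libraries and 106, 99.0 and 102 TPM in Ifnar1-SA. Every Ifnar1-SA library was below every WT library in TPM, with a log2 difference of -0.23 ± 0.15 (limma adjusted p = 0.9997). After median-of-ratios scaling the groups overlapped, at 108 to 122 and 93.3 to 119 scaled TPM, and the log2 difference was -0.13. Without WT 2 it was -0.14 in TPM. Egln3, a hydroxylase that HIF1A induces, was at 205, 426 and 311 TPM and at 325, 220.1 and 213 TPM. Egln1, the main oxygen sensor, was far scarcer, at 16.3, 38.6 and 28.1 TPM and at 23.6, 22.5 and 16.3 TPM. For both hydroxylases WT 1 was the lowest of the 6 libraries, level with Ifnar1-SA 3 for Egln1, and Egln3 made up 90.7% to 93.2% of their sum in every library.

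The HIF targets outside glycolysis had lower means in Ifnar1-SA, with wide spreads in WT. Ankrd37, a strongly hypoxia-induced ankyrin repeat gene, was at 64.5, 110.0 and 114 in WT libraries and 78.8, 67.9 and 67.5 TPM in Ifnar1-SA, with a log2 difference of -0.38 ± 0.24. Mxi1, a repressor that competes with MYC for its partner MAX, was at 8.77, 16.5 and 13.8 TPM and at 9.26, 9.88 and 7.72 TPM, with a difference of -0.46 ± 0.24. For both genes WT 1 lay in or below the Ifnar1-SA range and WT 2 and WT 3 lay above it. P4ha1, a collagen prolyl hydroxylase subunit, was at 28.4, 44.9 and 33.6 TPM and at 33.002, 25.9 and 24.9 TPM, with a difference of -0.32 ± 0.21, or -0.15 without WT 2. All 3 had a limma adjusted p of 0.9997. Bnip3, a mitophagy receptor, was at 274, 431 and 337 TPM and at 329, 354 and 260.2 TPM, so that the groups overlapped. Ankrd37 depended on WT 1 and WT 3, with a log2 difference of -0.65 without WT 1 and -0.24 without WT 3. Without WT 1 that of Mxi1 was -0.70, and without WT 2 it was -0.28.

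In each genotype the same library was highest for most members. WT 2 was the highest WT library for 28 of 33 members (58.0% of all genes tested), and Ifnar1-SA 1 was the highest Ifnar1-SA library for 30 of 33 (72.4%). Both held for 26 of 33 members (47.0%), and WT 2 was the highest of all 6 libraries for 24 (37.0%). Relative to each gene's mean over the 6 libraries, the members' median deviation on the log2 scale was -0.10, 0.40 and 0.03 in WT 1 to 3 and 0.17, -0.24 and -0.26 in Ifnar1-SA 1 to 3. The median over all genes was 0.00, 0.15 and -0.07, and 0.17, -0.11 and -0.14. After subtracting it, the members stood at -0.10, 0.25 and 0.10 in WT libraries and at 0.00, -0.13 and -0.12 in Ifnar1-SA, so that WT 1 lay between Ifnar1-SA 1 and the other 2 Ifnar1-SA libraries.

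**Figure D4:**
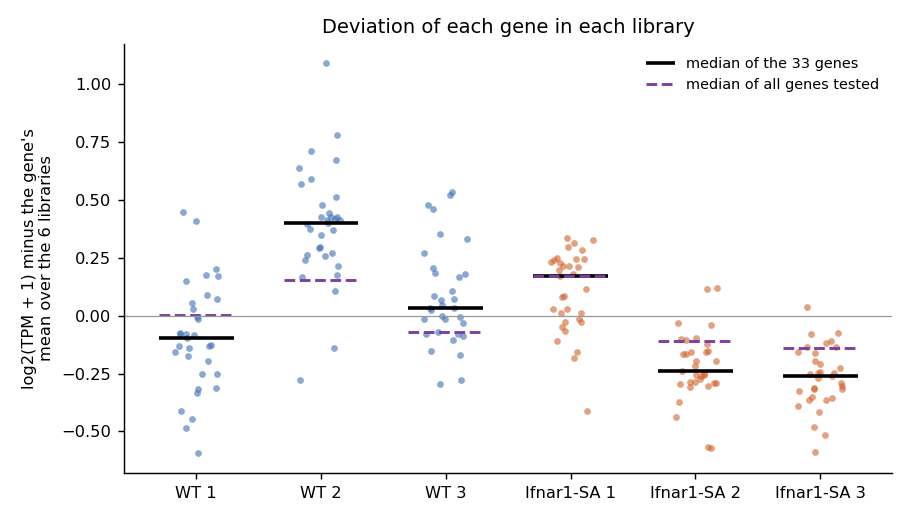
Deviation of each of the 33 genes from its own mean over the 6 libraries, in log2(TPM + 1), by library; the solid line is their median and the dashed line that of all genes tested. The genes stand highest in WT 2 (median 0.40) and lowest in Ifnar1-SA 3 (-0.26).

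Summed over the 18 enzyme genes from hexokinase to lactate dehydrogenase, the pathway took 4.42%, 5.95% and 4.53% of all in WT libraries and 5.38%, 4.13% and 4.02% in Ifnar1-SA. The means were 4.97 ± 0.852% and 4.51 ± 0.752%, a difference within the spread between libraries (exact two-sided permutation p = 0.5). Without WT 2 the mean of Ifnar1-SA was higher by 0.0342 percentage points. Without both WT 2 and Ifnar1-SA 1 the means were 4.48 ± 0.0735% and 4.08 ± 0.0746%, from 2 libraries each, for which the smallest exact permutation p, the value found, is 0.333.

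Scaling the libraries by their median ratio to the others narrowed the range of the enzyme sum over the libraries. The factors were 1.27 for WT 2 and 1.14 for Ifnar1-SA 1, and 0.860 to 0.9748 for the other 4 libraries. The enzyme sum was then 4.90, 4.69 and 4.65 in WT libraries and 4.73, 4.51 and 4.68 in Ifnar1-SA, in rescaled percent, with means of 4.75 ± 0.134 and 4.64 ± 0.113 (exact two-sided permutation p = 0.5). TMM scaling turned the direction, with means of 4.68 ± 0.257 in WT and 4.70 ± 0.133 in Ifnar1-SA. The median coefficient of variation of the members over the WT libraries was 21.5% in TPM and 8.04% after scaling, while that of all genes was 19.4% and 19.8%. Over the Ifnar1-SA libraries it was 17.8% and 8.84% for the members and 19.8% and 12.4% for all genes. The coefficient became smaller for 27 of the 33 members over the WT libraries and for 26 over the Ifnar1-SA libraries. For others it rose, over the WT libraries from 21.5% to 34.5% for Hk2 and from 10.4% to 17.8% for Ldha.

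**Figure D5:**
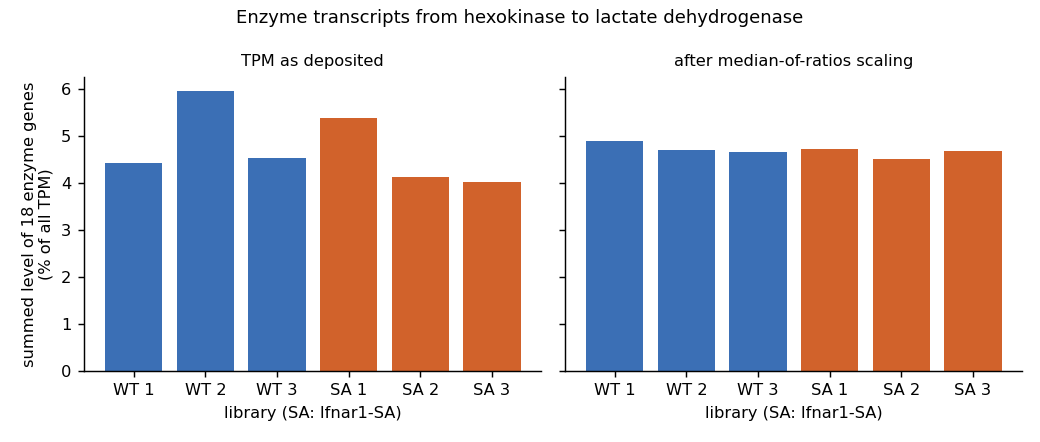
Summed level of 18 enzyme genes per library, as percent of all TPM (left) and after median-of-ratios scaling (right, in rescaled percent). The bars run from 4.02 to 5.95 on the left and from 4.51 to 4.90 on the right.

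With this scaling 7 members had Ifnar1-SA libraries all below the WT libraries, a separation found for 4.21% of all genes, and 0 members were separated the other way (3.66% of all genes). In TPM 2 members were separated in the lower direction (3.80% of all genes), and separation after TMM or quantile scaling was not examined. The members vary together, so these 7 are not separate observations. The 7 were Slc2a1, Slc2a3, Hk1, Pfkp, Gapdh, Pdk1 and P4ha1. Slc2a3 was then at 128, 242 and 214 scaled in WT libraries and 113, 106 and 110.5 in Ifnar1-SA, and Slc2a1 at 151, 140.3 and 163 against 118, 131 and 125. For Gapdh the separation was narrow, at 17199, 18036 and 17053 against 16853, 16711 and 16152. Pgk1, Pkm and Ldha had slightly higher scaled means in Ifnar1-SA, at 1585, 3760.3 and 7883 against 1523, 3665 and 7491 in WT, as had the scarce Eno3 and Pfkfb4. By limma 0 of the 33 members passed after this scaling (lowest adjusted p 0.999, 0.0494% of all genes passing), and 1 had an unadjusted p under 0.05 (3.94% of all genes). After TMM scaling the log2 differences were smaller, at -0.09 for Hif1a, -0.18 for P4ha1, -0.19 for Hk1, -0.21 for Pdk1 and -0.24 for both Slc2a1 and Ankrd37.

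Genes around the pathway were described from 7 further lists, in which 0 of the 96 genes tested passed an adjusted p of 0.05 by limma in either direction. Of 32 other textbook HIF targets tested, 27 had a lower mean log2 value in Ifnar1-SA (62.9% of all genes did), with a median of -0.32 relative to all genes. That median was -0.31 to -0.33 under the 3 other scalings, with 25 to 27 targets lower (35.2% to 49.6% of all genes). It moved to -0.50 without WT 1, -0.18 without WT 2 and -0.15 without both WT 2 and Ifnar1-SA 1. Car12, a carbonic anhydrase, was at 8.83 ± 2.07 in WT libraries and 4.63 ± 1.44 TPM in Ifnar1-SA. It was the 1 gene of the 96 with an unadjusted p under 0.05 by limma, against 3.12% of all genes. Narf was at 7.08 ± 0.768 and 5.36 ± 0.492 TPM. The genotypes did not overlap for 3 of the 32 targets (3.80% of all genes), which were these 2 and Plod2, a collagen lysyl hydroxylase at 3.93 ± 1.68 and 2.16 ± 0.569 TPM. Among 9 tested genes of the HIF machinery 6 had lower means in TPM and 3 after median-of-ratios or TMM scaling, with a median of 0.04 relative to all genes. Single libraries turned that median, which was 0.15 without WT 1 (3 lower) and -0.15 without WT 2 (7 lower). Epas1, the HIF2A gene, was at 7.18 ± 3.19 in WT libraries and 11.6 ± 1.92 TPM in Ifnar1-SA, while Vhl, which recognises hydroxylated HIF1A, was at 25.3 ± 6.73 and 17.6 ± 2.29 TPM and Arnt, the partner of HIF1A on DNA, at 8.37 ± 1.70 and 6.07 ± 1.04 TPM.

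Pathways that branch from or follow glycolysis had medians near that of all genes in TPM. Over all genes, lower means were found for 62.9% in TPM and for 42.5%, 49.6% and 35.2% after median-of-ratios, quantile and TMM scaling. The tricarboxylic acid cycle had 9 of 16 genes with lower means in TPM, but 1, 6 and 0 after median-of-ratios, quantile and TMM scaling, and a median of 0.05 relative to all genes. Examples were Suclg1 at 317 ± 29.5 and 349 ± 56.8 TPM and Sdhb at 299 ± 64.8 and 323 ± 44.3 TPM. WT 2 was the highest WT library for 1 of these 16 genes (58.0% of all genes tested), and Ifnar1-SA 1 was the highest Ifnar1-SA library for 14 (72.4%). Of the 7 genes of the pentose phosphate pathway 2 had lower means, or 0 after TMM scaling, with a median of 0.09 relative to all genes, and Rpia and Rpe were at 2.05 ± 0.395 and 16.1 ± 1.03 in WT libraries and 2.47 ± 0.657 and 14.9 ± 1.24 TPM in Ifnar1-SA. Mitochondrial pyruvate entry had 9 of 10 with lower means in TPM, but 4 after median-of-ratios or TMM scaling, and a median of -0.01 relative to all genes, which was -0.15 without both WT 2 and Ifnar1-SA 1. Its 2 genes of smallest p were Dld at 28.7 ± 7.57 and 23.0 ± 3.99 TPM and Pdpr at 1.48 ± 0.196 and 1.14 ± 0.393 TPM. The counts of these lists also turned on single libraries. Without WT 1, lower means were found for 1 of the 16 cycle genes and 3 of the 10 pyruvate entry genes, and without Ifnar1-SA 3 for 3 of the cycle genes. The cycle count was 12 without WT 3 or Ifnar1-SA 1 and 15 without both WT 2 and Ifnar1-SA 1, and all 10 pyruvate entry genes had lower means without WT 2. The pentose phosphate count ranged from 1 without Ifnar1-SA 3 to 5 without WT 3 or Ifnar1-SA 1, with 4 without WT 2. Over all genes, the share with lower means ran from 48.7% without WT 2 to 75.8% without Ifnar1-SA 1. These counts and medians describe the lists, and no difference between lists was tested.

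Regulators of glucose use were split, with 5 of the 11 tested lower (62.9% of all genes) and 6 higher by mean log2 value in TPM. After median-of-ratios or TMM scaling 3 were lower (42.5% and 35.2% of all genes) and 8 higher. Their median in TPM was 0.06 relative to all genes. Leaving out 1 library gave from 3 lower genes (without WT 2 or Ifnar1-SA 3) to 9 (without WT 3 or Ifnar1-SA 1), with 8 without WT 1. Myc, a driver of glycolytic gene expression in activated T cells, was at 208, 195 and 166 in WT libraries and 192, 161 and 145 TPM in Ifnar1-SA. Unlike most members it was highest in WT 1 among the WT libraries, and the groups overlapped. Txnip, which restrains glucose uptake, was at 6.03 ± 0.925 and 6.16 ± 1.48 TPM. Rheb, the activator of mTORC1, was at 54.0 ± 7.10 and 45.4 ± 4.82 TPM and the kinase gene Akt1 at 11.1 ± 1.34 and 12.8 ± 1.49 TPM. Among the 12 tested other isozymes of these steps 7 had lower means, or 6 after quantile or TMM scaling, with a median of -0.05 relative to all genes. Leaving out WT 2 moved it to 0.02 and leaving out Ifnar1-SA 1 to 0.06. With WT 1 left out, 10 of 13 genes past the filter had lower means. Gapdhs, the sperm form of the dehydrogenase, was at 2.32 ± 1.36 in WT libraries and 1.41 ± 0.393 TPM in Ifnar1-SA.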

How the data were processed

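Messenger RNA was sequenced from 6 libraries, 3 per genotype. The authors deposited gene-level TPM values, for which the submitters' processing notes name Salmon, mm10 and GRCm38, without version, annotation or read filters. TPM keeps no depth, so no counting interval is given.

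The whole table was tested as log2(TPM + 1) for genes reaching a mean of 1 TPM (limma 3.58.1 with intensity trend, R 4.3.3, two-sided, Benjamini-Hochberg, threshold 0.05, no replicate block). Fold changes on this scale understate those of low genes. Single values per library had exact permutation tests. The procedure was tested on simulated data with independent noise per gene and changes larger than those of the members. How often differences of the members' size would be found was not tested. The members and lists were chosen with earlier results of these data known. A log2 difference is given for members past the threshold or without overlap between the genotypes, filled to 8 by smallest p. Other lists have their 2 genes of smallest p named, except 1 gene that is not reported here, and Myc, Txnip, Vhl, Arnt and Epas1; Plod2, Eno1b and the genes without promoter letters were chosen after their values were seen.

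Alternatives were pseudocounts of 0.1 and 0.5, no filter or a filter at a mean of 5 TPM, scaling by median-of-ratios, TMM or quantiles, no trend, a replicate block, leaving out each library, and leaving out WT 2 with Ifnar1-SA 1. Positions are from GENCODE M21 (GRCm38), promoters from RefSeq (GRCm38.p6). Tables, exact tests and figures used Python 3.11.15 with scipy 1.17.1, numpy 2.4.6, matplotlib 3.10.9 and pandas 2.3.3.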

Additional observations from a re-analysis of the deposited data

How the results depend on the processing

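Under all 16 alternatives 0 of the members tested and 0 of the tested genes of the other lists passed the limma test. The filter at a mean of 5 TPM left 31 members, and the number of other genes tested changed with the filter and the libraries. The members' median relative to all genes stayed below 0 in every alternative. It was -0.24 to -0.11 with 1 library left out, -0.14 without both WT 2 and Ifnar1-SA 1 and -0.22 with quantile scaling. With 1 library left out, 27 to 33 members had lower means, beside 48.7% to 75.8% of all genes. With a replicate block 0 members passed, 0 had an unadjusted p under 0.05, and 0 genes in all passed against 7 without it. Without WT 1, 8 members had an unadjusted p under 0.05 by limma, beside 854 of 12267 genes (lowest adjusted p of a member 0.319). Without Ifnar1-SA 1, 4 members had one, beside 539 of 12114 genes (lowest adjusted p 0.761). Leaving out any other single library gave 0 such members. Deviations of same-numbered libraries had correlations of -0.11, -0.11 and 0.15 across genes, so the numbers were not taken as pairs. Among such deviations from the genotype mean, the highest correlation between a WT and an Ifnar1-SA library was 0.25, for WT 2 with Ifnar1-SA 1. Over all genes the count of 7 was 15 and 14 with pseudocounts of 0.1 and 0.5, 1 with a mean of at least 5 TPM, 15 to 28 with 1 library left out, and 0 without both WT 2 and Ifnar1-SA 1. The 8 members given with a log2 difference were picked from these same values by lack of overlap or smallest p, which favours a stable sign. They kept that sign in every alternative, with smaller sizes after TMM scaling. Of all 33 members, 26 had lower means after TMM scaling (35.2% of all genes) and 27 without WT 2 (48.7% of all genes).

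The difference in the enzyme sum was 0.0223 with TMM scaling and -0.890 to 0.0342 with 1 library left out. With 1 library left out, the difference in share ran from -1.89 to 5.93 percentage points for Hk2, -0.0305 to 0.0281 for Eno2 with Eno3, -0.790 to 0.918 for Slc16a3 and -0.202 to 1.04 for Egln3, which was -0.361 without both WT 2 and Ifnar1-SA 1; the cause was not tested. The other 6 shares kept their direction, at 1.23 to 5.23 for Pfkfb4, −0.320 to −0.0870 for Aldoc and 1.46 to 4.51 for Pdk3. The sequencing depth is unknown, so the part of counting error in the spread of scarce members such as Pfkfb4 was not tested.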
